A study of Mus musculus with 6 samples.

Results

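Of the 1364 miRNAs listed in the NAc miRNA-Seq table, 6 are described here: mmu-miR-103-3p, mmu-miR-107-3p, mmu-miR-339-3p, mmu-miR-339-5p, mmu-miR-190a-5p and mmu-miR-365-3p, written below without the mouse prefix. They were chosen by name, as miRNAs that have been linked to the mu opioid receptor or to its signalling, and all 6 were present in the table. The rule for the names used no value of these libraries, but the set was put together when earlier results of the same data were known.

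The study addressed which RNAs change in the NAc, a reward region of the ventral striatum, of mice that had acquired a conditioned place preference (CPP) for morphine. Adult male C57BL/6N mice aged 7 to 8 weeks received 10 mg/kg morphine or 1 ml/kg saline by intraperitoneal injection over 6 days of conditioning, were tested on day 7, and gave NAc tissue 0.5 h after the test. The saline group and the morphine group, which differ in the injection, each had 3 libraries. One source of the study gives 1 mouse per library and another 2, so p-values measure the spread between these libraries.

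The mu opioid receptor, encoded by Oprm1, is the G protein-coupled receptor through which morphine acts. After activation it is bound by beta-arrestin 2 (Arrb2), which uncouples the receptor from its G protein and promotes its internalization. A miRNA is loaded into Argonaute and pairs, chiefly through its seed at bases 2 to 8, with sites in mRNA 3′ UTRs, which lowers the stability or the translation of the mRNA. In earlier work miR-103 and miR-107 were linked to a splice variant of the mu opioid receptor, miR-339-3p to the 3′ UTR of Oprm1, miR-190 to the transcription factor gene Neurod1 downstream of receptor signalling, and miR-365 to Arrb2. miR-339-5p is the other arm of the miR-339 hairpin.

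The mature sequences, from RefSeq on GRCm38.p6, are shown with the seed in capitals because miRNAs with the same seed can share targets.
miR-103-3p: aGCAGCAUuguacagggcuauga
miR-107-3p: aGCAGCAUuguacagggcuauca
miR-339-3p: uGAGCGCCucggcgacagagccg
miR-339-5p: uCCCUGUCcuccaggagcucacg
miR-190a-5p: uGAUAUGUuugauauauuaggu
miR-365-3p: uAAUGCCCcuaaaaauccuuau
The 6 miRNAs carry 5 seeds. miR-103-3p and miR-107-3p have the same seed and the same first 21 bases, and differ by G22C, counted from the 5′ end with the base of miR-103-3p first. Trimmed or edited 3′ ends could therefore move reads between this pair, and how such reads were assigned is not given in the sources used here. Their base composition spans a wide range, with a GC content of 22.7% in miR-190a-5p, 31.8% in miR-365-3p, 47.8% in miR-103-3p and miR-107-3p, 65.2% in miR-339-5p and 73.9% in miR-339-3p.

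The hairpins lie at 7 loci of GRCm38. miR-103-3p has 2 hairpins, in introns of pantothenate kinase genes: Mir103-1 at chr11:35782396-35782481 (+) in Pank3 and Mir103-2 at chr2:131288052-131288137 (+) in Pank2. Mir107 at chr19:34820687-34820773 (-) lies in an intron of a further gene of that family, Pank1. Mir339 at chr5:139369650-139369745 (-) lies in an intron of 3110082I17Rik, and Mir190a at chr9:67236660-67236726 (-) in an intron of Tln2, which encodes the cytoskeletal protein talin 2. miR-365-3p also has 2 hairpins, Mir365-1 at chr16:13453840-13453926 (+), which is antisense to an intron of Gm15738, and Mir365-2 at chr11:79726400-79726511 (+), which lies in no annotated gene. Reads of miR-103-3p or of miR-365-3p cannot be divided between the hairpins that encode the same sequence.

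Seed matches were searched, on the transcribed strand only, in the annotated 3′ UTRs of the genes named above. Arrb2 holds a match to the miR-365-3p seed, in 3 of its 5 transcripts with a 3′ UTR, at chr11:70440400-70440406 (+), and Neurod1 a match to the miR-190a-5p seed at chr2:79453430-79453436 (-). Both are followed by an A, and the match is in capitals.
Arrb2: ttgttgaaagtGGGCATTaatcttct
Neurod1: tcaatttttatACATATCagaaaagt
The letters GGGCATT or GGCATTA were present in 4.28% of 13935 3′ UTR windows of the Arrb2 length, and ACATATC or CATATCA in 11.1% of 7716 windows of the Neurod1 length. The letters ATGCTGC or TGCTGCA (miR-103-3p and miR-107-3p, 16.7% of 10007 windows) and GGCGCTC or GCGCTCA (miR-339-3p, 2.66%) were not in the annotated 3′ UTRs of 17 Oprm1 transcripts, which says only that these letters are not in those windows. These matches are descriptions of sequence, not of binding.

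The libraries held 4183333 to 9842050 counts, so that 3 counts correspond to 0.305 to 0.717 CPM (read counts scaled to a common library size). The 5 neuronal marker miRNAs were present in every library and summed to 127656 to 272558 CPM in the saline group and 177274 to 205599 CPM in the morphine group. Without saline 2 the neuronal sums did not overlap, with saline 1 and 3 at 142624 and 127656 CPM. miR-9-5p and miR-128-3p made up most of these sums. miR-124-3p, the only 1 of the 5 called with all libraries, was lower in the morphine group (log2 fold change -1.88). The markers of other cell types were also present, miR-144-3p being at 0 in morphine 2. The endothelial sum (2 miRNAs, 1485 to 5002 CPM in saline and 10984 to 16264 CPM in morphine) followed miR-126a-3p (log2 fold change 2.42), while miR-126a-5p was at -0.96 and not called. Saline 2 was the highest library for miR-126a-5p, with 2115 counts against 125 and 291 in saline 1 and 3. Without saline 2, miR-126a-5p was at 1.25 and miR-126a-3p at 3.18, both called. In that fit 37% of all miRNAs tested met the criteria of the study. The microglial and leukocyte sum (4 miRNAs, 155 to 272 CPM and 854 to 1069 CPM) followed miR-146a-5p (2.29), the only 1 of the 4 called. The erythroid sum (3 miRNAs, 208 to 311 CPM and 358 to 571 CPM) followed miR-451a (1.57), the only 1 of the 3 to meet the criteria of the study. The choroid plexus and multiciliated cell sum (7 miRNAs, 1982 to 2795 CPM and 1044 to 1185 CPM) fell with miR-204-5p (-1.50), whereas 4 of the 7 were higher by those criteria and the median log2 fold change of the list was 1.21. Of those 4, miR-200a-3p, miR-200b-3p and miR-429-3p were highest in morphine 1, and their groups overlapped. Without morphine 1, 1 of the 7 was higher by the criteria, with a median of 0.84. The sums overlapped for oligodendrocyte (3 miRNAs, 1820 to 1903 CPM and 1572 to 1963 CPM) and for mural cell and fibroblast markers (4 miRNAs, 7152 to 18958 CPM and 5749 to 13824 CPM). Among the oligodendrocyte markers miR-219a-5p was lower by the criteria of the study (-3.69), but not without saline 2 (-0.50). Among the mural cell and fibroblast markers miR-199a-3p was higher by the criteria (1.86). Its groups did not overlap, as for 12.2% of all miRNAs in that direction. Muscle markers (3 miRNAs) summed to 72.4 to 970 CPM in saline and 444 to 554 CPM in morphine, and overlapped only through saline 2, since saline 1 and 3 had 272 and 72.4 CPM. This sum followed miR-1a-3p (log2 fold change 0.32, not called). miR-206-3p went the other way (-2.06) and was lower by the criteria of the study. Its groups did not overlap, as for 9.9% of all miRNAs in that direction. Without saline 1, or without morphine 1, 0 of the 3 met the criteria. In bulk tissue, fewer cells of a type and less RNA per cell cannot be told apart, and the part of these differences in the results was not tested. Saline 2 stood apart from the other saline libraries: Spearman's correlation within the saline group ranged from 0.869 to 0.952 over 899 miRNAs, while saline 2 correlated at 0.907 to 0.926 with the morphine libraries and saline 1 and 3 at 0.864 to 0.883. The fold changes of the 6 miRNAs that move with saline 2 are therefore given with and without it.

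Of the 6 miRNAs, 1 met the criteria of the study (p no higher than 0.05 before adjustment, with a |log2 fold change| that reaches 0.58), and it was lower in the morphine group. Among all 1364 miRNAs, 19.4% met these criteria, 9.68% lower and 9.68% higher. The same miRNA, miR-339-5p, was the only 1 of the 6 with an adjusted p under 0.05, against 5.21% of all miRNAs (2.13% lower and 3.08% higher). Fold changes and p-values are from the quasi-likelihood test of edgeR, adjusted by Benjamini-Hochberg over all 1364 miRNAs, errors of log2 fold changes are standard errors, and levels are CPM after scaling by trimmed mean of M-values (TMM), as mean ± SD with n = 3 libraries per group. The 6 miRNAs had a median log2 fold change of -0.53, against -0.15 for all miRNAs.

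**Figure D1:**
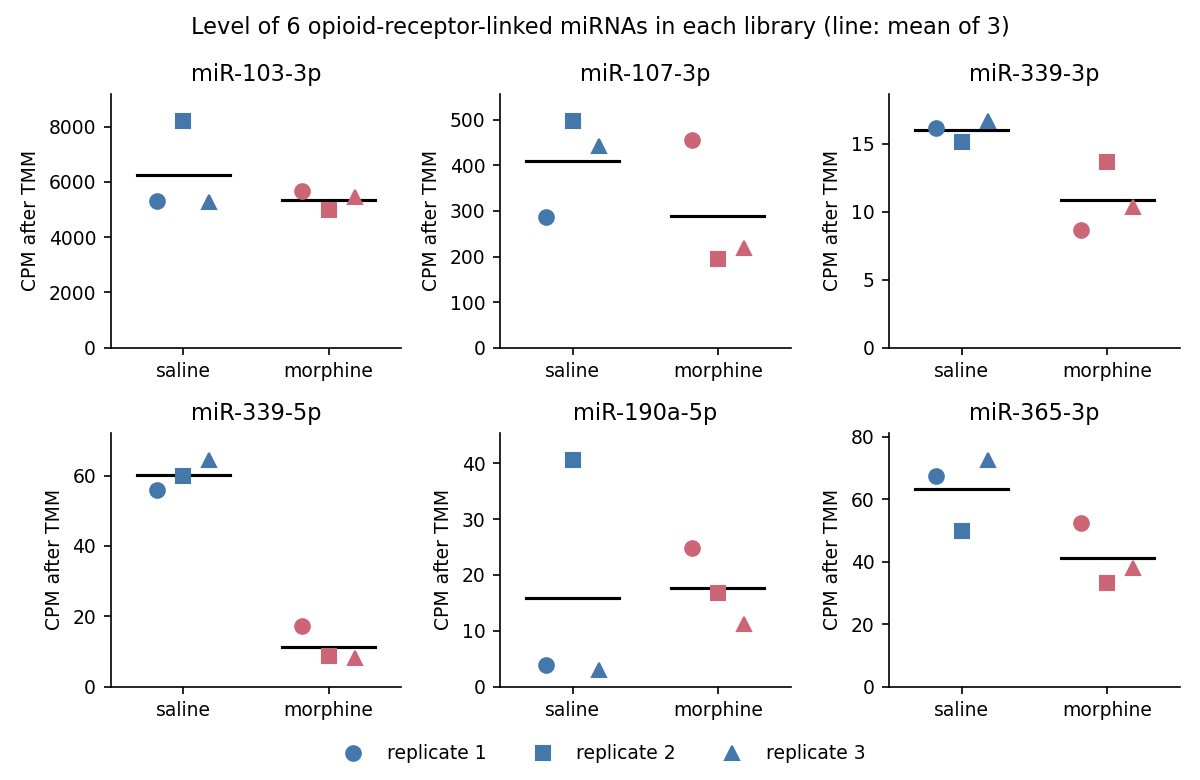
Level of each miRNA (CPM after TMM scaling, linear axis from 0) in the 3 saline and 3 morphine libraries, with a line at the group mean and a marker shape per replicate number, which does not pair libraries. The morphine values of miR-339-5p (8.01 to 17.4 CPM) all lie below the saline values (56.0 to 64.5 CPM), and saline 2 is the highest library for miR-190a-5p at 40.6 CPM.

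miR-103-3p and miR-107-3p, the pair with a common seed, were the most abundant of the 6 in every library. miR-103-3p had 28947, 54785 and 50305 counts in saline 1, 2 and 3 and 51133, 33971 and 34717 counts in morphine 1, 2 and 3. After TMM scaling these were 5298, 8216 and 5276 CPM in the saline group and 5657, 4977 and 5452 CPM in the morphine group. Only saline 2 was above the range of the morphine group, and the groups overlapped. The means of 6264 ± 1691 and 5362 ± 348 CPM gave a log2 fold change of -0.22 ± 0.44 (adjusted p = 0.792). Without saline 2 it was 0.02 ± 0.23 (adjusted p = 0.945). Scaled to library totals alone, the saline libraries had 6920, 6573 and 6975 CPM and the morphine libraries 5195, 4659 and 4591 CPM, so that on this scale the groups did not overlap, as for 10.6% of all miRNAs in that direction. The log2 fold change with library totals was -0.50, against a median of -0.40 over all miRNAs on the same scale, and the miRNA was called on neither scale.

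miR-107-3p had 1569, 3320 and 4223 counts in saline 1, 2 and 3 and 4116, 1327 and 1386 counts in morphine 1, 2 and 3. On the TMM scale the values were 287, 498 and 443 CPM and 455, 194 and 218 CPM. Morphine 1 lay within the saline range, while morphine 2 and 3 lay below it. The log2 fold change was -0.50 ± 0.49 (409 ± 109 against 289 ± 144 CPM, adjusted p = 0.584) and did not pass either threshold. In each library there were more counts of miR-103-3p than of miR-107-3p, by a ratio of 18.4, 16.5 and 11.9 in the saline group and 12.4, 25.6 and 25.0 in the morphine group. This ratio needs no scaling between libraries, and its groups overlapped. The difference in mean log2 ratio, morphine minus saline, was 0.38 (exact two-sided permutation test, p = 0.3, adjusted p = 0.6 over 6 ratios). With 3 libraries against 3 that test cannot give a p below 0.1.

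The other miRNAs with AGCAGC within their first 8 bases, the miR-15 and miR-107 group, were miR-15a-5p, miR-15b-5p, miR-16-5p, miR-195a-5p, miR-322-5p, miR-497a-5p and miR-503-5p. miR-15 and miR-16 are known for limiting cell cycle and survival genes. None of the 7 met the criteria or had an unadjusted p under 0.05 in edgeR (0 of 7), nor was any called with DESeq2 (0 of 7), and their median log2 fold change was -0.01. Without saline 2, 2 of the 7 were higher by the criteria of the study, when 37% of all miRNAs tested met them. No other miRNA of the table with a RefSeq sequence had exactly the seed of miR-103-3p and miR-107-3p.

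miR-339-5p fell in the morphine group and miR-339-3p, made from the opposite arm of the same hairpin, did not pass the test. The Mir339 hairpin is shown with both mature arms in capitals, the 5p arm first, because the arms differed in their counts.
Mir339: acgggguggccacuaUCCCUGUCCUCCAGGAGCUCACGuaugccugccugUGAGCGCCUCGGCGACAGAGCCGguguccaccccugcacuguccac
miR-339-5p had 306, 399 and 615 counts in saline 1, 2 and 3 and 157, 60 and 51 counts in morphine 1, 2 and 3. The TMM-scaled levels were 56.0, 59.8 and 64.5 CPM in the saline group and 17.4, 8.79 and 8.01 CPM in the morphine group. The saline libraries, saline 2 included, lay close together, every morphine library lay below them, and morphine 1 was the highest of its group. The means of 60.1 ± 4.25 and 11.4 ± 5.19 CPM gave a log2 fold change of -2.40 ± 0.52, or a level 5.26-fold lower (adjusted p = 0.0109, edgeR). Groups that did not overlap in that direction were found for 9.9% of all miRNAs.

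The fall of miR-339-5p met the criteria of the study in each of 18 alternative analyses, with log2 fold changes of -2.73 to -1.91. Without saline 2 it was -2.39 ± 0.36 (adjusted p = 6.75e-10), in a fit in which 386 of 1328 miRNAs had an adjusted p under 0.05. Its adjusted p ranged over these alternatives up to 0.0968. It was above 0.05, and so not called by adjusted p, without morphine 1, 2 or 3 (0.0865, 0.0896 and 0.0968) and with the replicate number as a block (0.0516).

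miR-339-3p had 88, 101 and 159 counts in saline 1, 2 and 3 and 78, 93 and 66 counts in morphine 1, 2 and 3. The levels were 16.1, 15.1 and 16.7 CPM in the saline group and 8.63, 13.6 and 10.4 CPM in the morphine group. Every morphine library was below every saline library on this scale, by a gap between saline 2 and morphine 2 that was smaller than the spread within the morphine group. miR-339-3p had a log2 fold change of -0.56 ± 0.55 (16.0 ± 0.773 against 10.9 ± 2.54 CPM, adjusted p = 0.584). With scaling to library totals the groups overlapped.

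Within each library, the ratio of miR-339-5p to miR-339-3p counts was 3.48, 3.95 and 3.87 in saline 1, 2 and 3 and 2.01, 0.645 and 0.773 in morphine 1, 2 and 3. The 5p arm was thus the more abundant arm in all saline libraries and in morphine 1, and the less abundant arm in morphine 2 and 3. On the log2 scale the ratio was 1.91 ± 0.0987 in the saline group and 0.00 ± 0.882 in the morphine group, a difference of -1.91. The exact two-sided permutation p was 0.1, the smallest that 3 libraries against 3 can give, and was 0.6 after adjustment over 6 ratios. Across the 144 hairpins with both arms counted well enough, the 5p to 3p ratio did not overlap between the groups and was lower in the morphine group for 23.6%, and it did not overlap in either direction for 43.8%. Of these hairpins, 19 had a larger fall than Mir339.

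**Figure D2:**
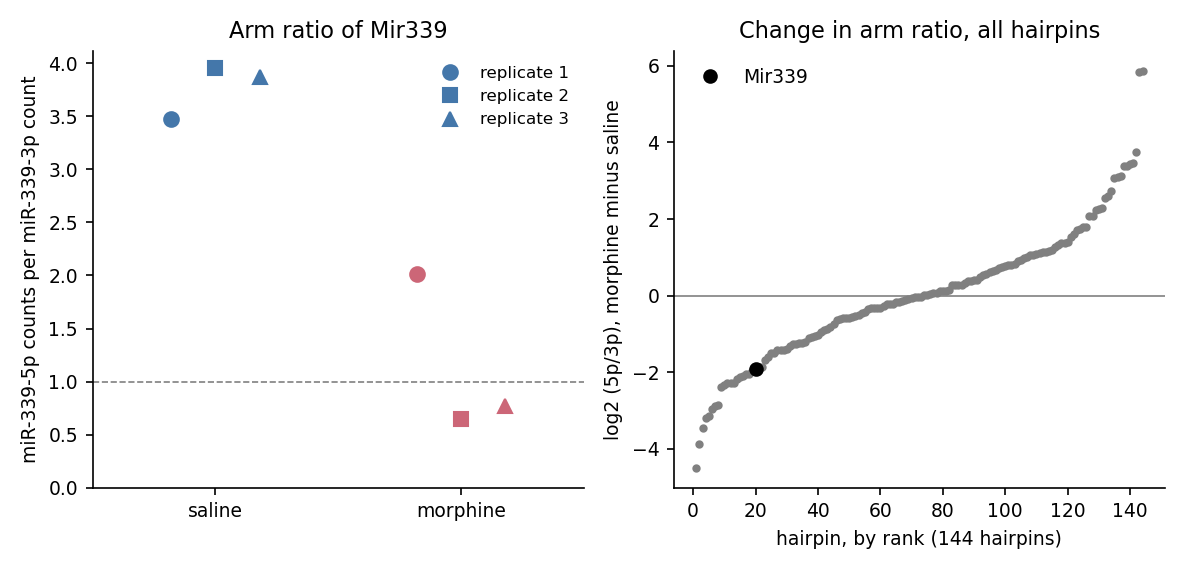
Left, miR-339-5p counts per miR-339-3p count in each library (linear axis from 0, dashed line at equal counts); right, the change in log2 5p/3p ratio, morphine minus saline, for 144 hairpins in rank order. The saline ratios of Mir339 are 3.48 to 3.95 and the morphine ratios 0.645 to 2.01, and 19 hairpins lie below Mir339 in the ranking.

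The comparison for miR-190a-5p depended on a single library. It had 21, 271 and 28 counts in saline 1, 2 and 3 and 224, 115 and 71 counts in morphine 1, 2 and 3. The levels were 3.84, 40.6 and 2.94 CPM in the saline group and 24.8, 16.8 and 11.1 CPM in the morphine group. Saline 2 was the highest of all 6 libraries, at 10.6 times saline 1 and 13.8 times saline 3, while all morphine libraries lay above saline 1 and saline 3. The 21 counts of saline 1 have an exact Poisson 95% interval of 13.0 to 32.1, which covers counting error only.

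With all libraries the log2 fold change of miR-190a-5p was 0.16 ± 0.75 (15.8 ± 21.5 against 17.6 ± 6.85 CPM, adjusted p = 0.919, edgeR). Without saline 2 it was 2.39 ± 0.44 (adjusted p = 2.38e-06, edgeR), when 37% of all miRNAs tested met the criteria of the study. Leaving out saline 1, saline 3 or morphine 1 instead gave -0.19, -0.24 and -0.03, none of them called. Its direction therefore turned on which libraries were used.

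miR-190b-5p is the only other miRNA of the table with a RefSeq sequence and 1 of the 5 seeds. It is shown beside miR-190a-5p, with the seed in capitals, because the pair has the same first 15 bases and differs at 7 positions after them.
miR-190a-5p: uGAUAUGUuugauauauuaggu
miR-190b-5p: uGAUAUGUuugauauuggguug
miR-190b-5p was far rarer, with 2, 6 and 8 counts in saline 1, 2 and 3 and 17, 8 and 12 counts in morphine 1, 2 and 3. Its log2 fold change was 1.19 ± 0.83 (adjusted p = 0.466, edgeR), and saline 2 was not set apart in this miRNA. The ratio of miR-190a-5p to miR-190b-5p counts was 10.5, 45.2 and 3.50 in the saline group and 13.2, 14.4 and 5.92 in the morphine group. These ranges overlapped, with a difference in mean log2 ratio of -0.19 (exact permutation p = 1). The 3p arm of Mir190a had 0, 14 and 0 counts in the saline group and 4, 0 and 1 counts in the morphine group, so that saline 2 was the highest library for both arms of the hairpin.

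miR-365-3p, whose seed matches the Arrb2 sequence printed above, had lower means in the morphine group but did not pass the test. Counts were 368, 331 and 692 in saline 1, 2 and 3 and 472, 226 and 241 in morphine 1, 2 and 3. The levels were 67.4, 49.6 and 72.6 CPM in the saline group and 52.2, 33.1 and 37.8 CPM in the morphine group. Morphine 1 lay above saline 2, and all other morphine values lay below all saline values. The log2 fold change was -0.62 ± 0.50 (63.2 ± 12.0 against 41.1 ± 9.95 CPM, adjusted p = 0.522, edgeR). Without saline 2 it was -0.77 ± 0.34 (adjusted p = 0.0684, edgeR), which met the criteria of the study, as did 37% of all miRNAs tested.

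The loci of miR-365-3p also carry miR-193 hairpins on the same strand, Mir193b 4238 bases before Mir365-1 and Mir193a 14365 bases before Mir365-2. Of the 6 neighbouring or paralogous miRNAs listed (both arms of Mir193a, Mir193b and Mir190b), 3 were lower by the criteria of the study, which 9.68% of all miRNAs met in that direction, and 0 had an adjusted p under 0.05 in edgeR, against 2 in DESeq2. The 3 were miR-193b-3p, miR-193b-5p and miR-193a-5p. miR-193b-3p had 1515, 715 and 3384 counts in saline 1, 2 and 3 and 594, 597 and 568 counts in morphine 1, 2 and 3. Its groups did not overlap on the TMM scale, as for 9.9% of all miRNAs in that direction, and saline 2 was the saline library nearest to the morphine group. The groups of miR-193b-5p and miR-193a-5p overlapped, with saline 2, at 7.35 and 1.05 CPM, within the range of the morphine libraries. The log2 fold changes were -1.61 ± 0.50 for miR-193b-3p (adjusted p = 0.0620, edgeR), -1.31 for miR-193b-5p (adjusted p = 0.231, edgeR) and -2.13 for miR-193a-5p (adjusted p = 0.1003, edgeR). Without saline 2 all 3 had an adjusted p under 0.05, at -1.97, -1.68 and -2.60 in the same order, in a fit in which 386 of 1328 miRNAs did. With any other single library left out, 0 to 2 of the 6 were lower by the criteria, 0 without morphine 1 and 1 without saline 1.

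Within each library the count of miR-365-3p was 0.243, 0.463 and 0.204 times that of miR-193b-3p in saline 1, 2 and 3 and 0.795, 0.379 and 0.424 times in morphine 1, 2 and 3. Saline 2 lay among the morphine values, and the difference in mean log2 ratio was 0.82 (exact permutation p = 0.3, adjusted p = 0.6). Against miR-193a-3p, which had 10 counts over all libraries, the difference was -0.01 (exact permutation p = 1).

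Of the 6 partner arms listed for the other hairpins, 5 were in the table, and with all libraries none was called or had an unadjusted p under 0.05 in edgeR (0 of 5), nor was any called with DESeq2 (0 of 5). miR-365-1-5p, the arm that marks the Mir365-1 hairpin, had 193, 23 and 160 counts in saline 1, 2 and 3 and 111, 92 and 108 counts in morphine 1, 2 and 3. Saline 2 was the lowest of the 6 libraries for this arm, the reverse of its place for miR-190a-5p. This arm had a log2 fold change of -0.38 with all libraries and -0.87 ± 0.38 without saline 2 (adjusted p = 0.0728, edgeR). The latter met the criteria of the study, as did 37% of all miRNAs tested in that fit. The arm of Mir365-2 had 3 to 8 counts per library, and the 5p arms of Mir103-2 and Mir107 at most 3. The arms at or under 3 counts have no readable fold change at this depth.

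**Figure D3:**
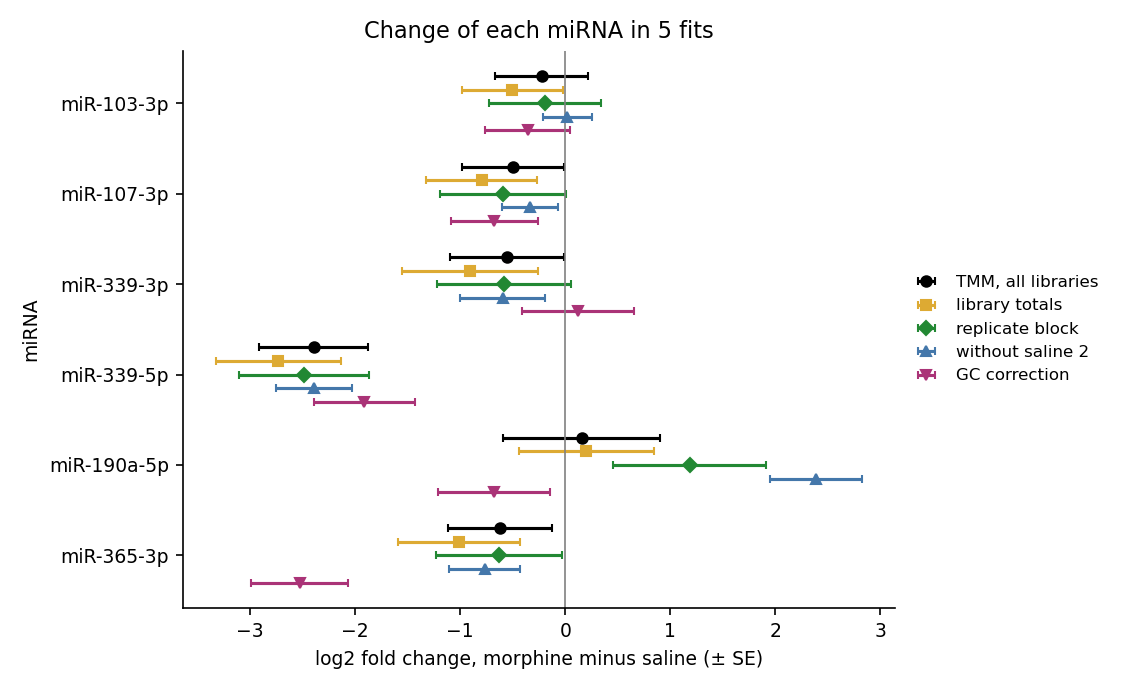
Log2 fold change, morphine minus saline, with its standard error for each miRNA under 5 analyses: TMM scaling with all libraries, library totals, the replicate number as a block, without saline 2, and a correction for GC content. miR-339-5p stays between -2.73 and -1.91, while miR-190a-5p lies between -0.68 and 2.39.

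The order of the levels changed little at the top and more below it. All 6 sequences are 22 or 23 bases long, and levels were compared as CPM after TMM scaling. Their GC content runs from 22.7% to 73.9%, and its part in the order was not tested. miR-103-3p ranked first and miR-107-3p second in each of the 6 libraries, and over all 1364 miRNAs they ranked 29 and 133 by mean level, against 257 for miR-365-3p, 282 for miR-339-5p, 354 for miR-190a-5p and 376 for miR-339-3p. In the saline group, miR-365-3p (63.2 ± 12.0 CPM) and miR-339-5p (60.1 ± 4.25 CPM) did not differ beyond their spread. miR-339-3p (16.0 ± 0.773 CPM) and miR-190a-5p (15.8 ± 21.5 CPM) had like means only through saline 2. In saline 1 and 3 miR-339-3p was higher, at 16.1 and 16.7 CPM against 3.84 and 2.94 CPM for miR-190a-5p. In saline 2 it was lower, at 15.1 against 40.6 CPM. In the morphine group miR-365-3p (41.1 ± 9.95 CPM) was followed by miR-190a-5p (17.6 ± 6.85 CPM), miR-339-5p (11.4 ± 5.19 CPM) and miR-339-3p (10.9 ± 2.54 CPM). Of these, miR-339-5p and miR-339-3p did not differ beyond their spread, and miR-190a-5p ranked above both in all 3 morphine libraries. miR-339-5p moved from rank 3 or 4 among the 6 in the saline libraries to rank 5 or 6 in the morphine libraries, and miR-190a-5p from rank 5 or 6 to rank 4. Together the 6 miRNAs took 0.748%, 0.710% and 0.777% of all counts in saline 1, 2 and 3 and 0.571%, 0.491% and 0.483% in morphine 1, 2 and 3, a share in which miR-103-3p makes up most of the counts. After TMM scaling their sums overlapped, at 5729 to 8880 CPM in the saline group and 5244 to 6215 CPM in the morphine group.

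The place of saline 2 among the saline libraries varied with GC content. Over the 366 miRNAs that reached 300 counts summed over libraries, the log2 level in saline 2 minus the mean of saline 1 and 3 was correlated with GC content at r = -0.66 and Spearman's rho = -0.67, a description across miRNAs that share the same libraries. The log2 fold change of morphine against saline was correlated with GC content at r = -0.26 and rho = -0.32. miR-190a-5p, with the lowest GC content of the 6, had a saline 2 difference of 3.25, and miR-103-3p and miR-107-3p had 0.64 and 0.48. miR-339-5p and miR-339-3p, with the highest, had -0.01 and -0.11. miR-365-3p was the exception: among 27 such miRNAs with a GC content under 35%, the saline 2 difference had a median of 3.05 and ran up to 5.65, and miR-365-3p, at -0.49, was the only 1 of the 27 below 0.

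A correction for GC content, added after the data had been seen, compares each miRNA with others of like GC content in the same library. Under it miR-339-5p was at -1.91 and still called, miR-190a-5p at -0.68 and miR-339-3p at 0.12, neither called. miR-365-3p was at -2.53 ± 0.46 (adjusted p = 1.09e-05, edgeR), and so was called with the correction and not without it. The correction takes off the trend of low-GC miRNAs in saline 2 (median difference 3.05), which miR-365-3p, at -0.49, did not follow. The part of this in the call was not tested.

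**Figure D4:**
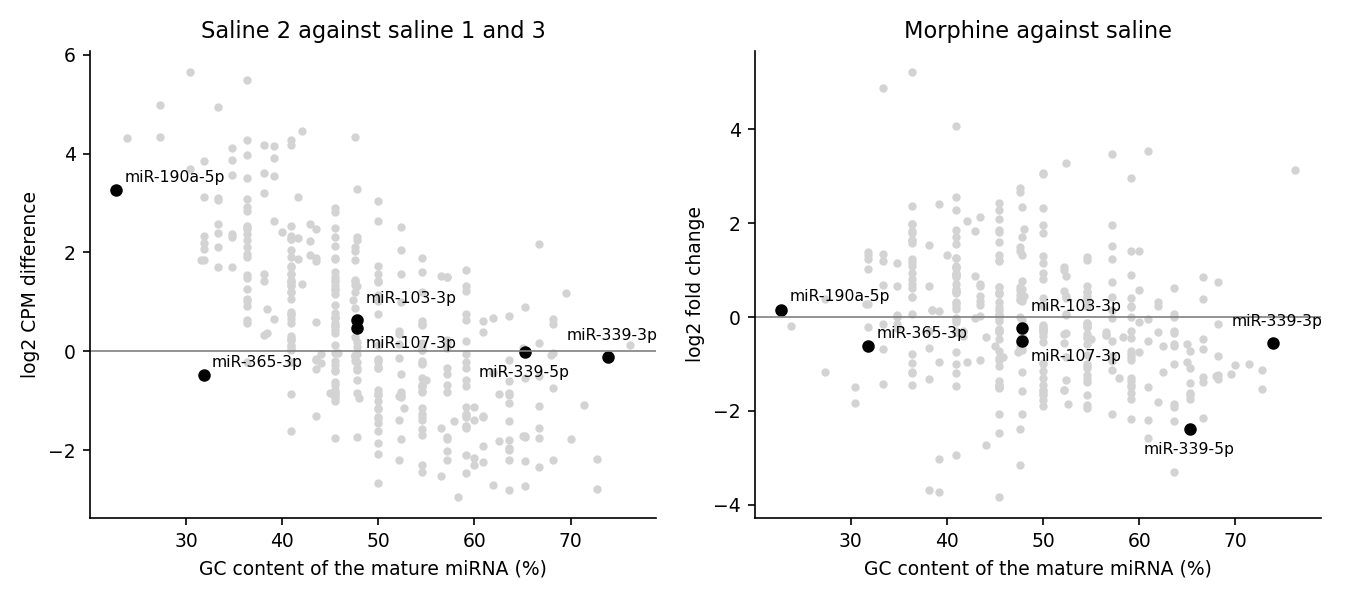
Log2 CPM difference of saline 2 from the mean of saline 1 and 3 (left) and log2 fold change, morphine minus saline (right), against the GC content of the mature miRNA in percent, for 366 miRNAs with at least 300 counts (grey), with the 6 described here in black. In the left panel miR-190a-5p lies at 3.25 with the other low-GC miRNAs and miR-365-3p lies at -0.49, below all of the other miRNAs under 35% GC.

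As a wider reference, 21 other miRNAs linked to opioid action were counted, among them the let-7 family, which has been linked to the translation of the mu opioid receptor, and the neuronal miR-124-3p and miR-132-3p. By the criteria of the study 6 rose and 3 fell with morphine, and at an adjusted p under 0.05 1 was higher and 2 were lower, with a median log2 fold change of 0.42. The 6 that rose were let-7c-5p, let-7e-5p, let-7f-5p, let-7g-5p and let-7i-5p, all of 1 family, and miR-218-5p. They are therefore not 6 unrelated miRNAs. Over all miRNAs the criteria were met by 9.68% in each direction. Library totals gave 4 higher and 3 lower with a median of 0.09, and the GC correction 3 higher and 3 lower with a median of -0.18. Without saline 2 the counts were 11 higher and 3 lower by the criteria and 10 higher and 3 lower by adjusted p, in a fit in which 492 of all 1328 miRNAs tested met the criteria, 278 of them higher, and 386 had an adjusted p under 0.05. With any other single library left out, 3 or 4 of the 21 were higher and 3 lower by the criteria. The 2 with the smallest p among those higher were let-7i-5p, at 1.72 ± 0.47 (adjusted p = 0.0406, edgeR), and let-7g-5p, at 1.65 ± 0.49 (adjusted p = 0.0510, edgeR). Among those lower they were miR-124-3p, at -1.88 ± 0.45 (adjusted p = 0.0195, edgeR), and miR-219a-5p, at -3.69 ± 0.95 (adjusted p = 0.0376, edgeR). miR-219a-5p, an oligodendrocyte miRNA, had 15, 426 and 23 counts in saline 1, 2 and 3 and 36, 5 and 3 counts in morphine 1, 2 and 3, and without saline 2 its log2 fold change was -0.50 (adjusted p = 0.543, edgeR). With DESeq2 and all libraries miR-219a-5p was not called by the criteria or by adjusted p. Saline 2 was thus the highest library for miR-219a-5p as for miR-190a-5p, and in the main edgeR test it decided whether either was called.

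The miRNAs whose log2 levels ran most like those of the 6 were ranked by Pearson's r over the 6 libraries among 369 well-counted miRNAs, as a description with no test. For miR-339-5p they were miR-93-5p (r = 0.996), miR-181b-5p (0.994) and miR-181a-5p (0.987). For miR-190a-5p they were miR-153-5p (0.983), miR-153-3p (0.980) and miR-135b-5p (0.979), and for miR-103-3p miR-30e-5p (0.989), miR-21a-5p (0.983) and miR-16-1-3p (0.981), and saline 2 was the highest library for all of these 6. The miRNAs most like miR-365-3p were let-7e-3p (0.992), miR-181a-1-3p (0.953) and miR-425-3p (0.923). miR-107-3p was followed most closely by miR-361-5p (0.966), miR-143-3p (0.899) and miR-154-5p (0.866), and miR-339-3p by miR-770-5p (0.930), miR-212-5p (0.911) and miR-1224-5p (0.891).

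The counts of mmu-miR-93-5p, the closest to miR-339-5p, were 1320, 1923 and 2650 in saline 1, 2 and 3 and 1113, 509 and 495 in morphine 1, 2 and 3. Its levels of 242, 288 and 278 CPM in the saline group lay above those of the morphine group at 74.6 to 123.1 CPM, with morphine 1 again the highest of its group. mmu-miR-93-5p thus had a log2 fold change of -1.55 (adjusted p = 0.0511, edgeR), against -2.40 for miR-339-5p. It was picked for its likeness over these same libraries, so a like fall is not a separate result. It is also in the opioid-linked list above.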

How the data were processed

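For miRNA-Seq, libraries were made from 3 μg of NAc RNA. The authors kept reads of 15 to 35 nt, used Bowtie to remove reads from other RNA classes and repeats, and matched the rest to miRBase. The authors deposited raw read counts per miRNA and library, and TPM values, which equal the count scaled to the library total and were not used in a test. The genome build, miRBase release and strand handling are not given in the sources used here. All columns were used (0 not used). Counts of all 1364 miRNAs (1281 with miRBase names, 83 predicted) were fitted with edgeR 4.0.16 in R 4.3.3 (TMM, quasi-likelihood F test, no covariate), and DESeq2 1.42.0 was an alternative. Ratios within a library were tested by exact permutation, with 0.5 added to both counts in every library of a pair that held a 0. Their p-values were adjusted with SciPy 1.17.1. The test was tried on simulated data. Intervals and floors cover counting error only.

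The members and lists were chosen with earlier results of these data known. The miRNAs named are the 6, their partner arms, neighbours and seed sharers, the 2 with the smallest p in each direction of the opioid-linked list, and the 3 most alike by r (at least 100 counts per library on average, log2(CPM + 1)). The GC correction (loess over GC content, at least 300 counts), the ranking of 144 hairpins, the low-GC comparison and the values of miR-93-5p were chosen after the data were seen. Sequences are from RefSeq (1089 of the table's miRNAs matched), and hosts and 3′ UTRs from GENCODE on GRCm38. Alternatives were other scalings, tests and filters, thinning, a replicate block and leaving out each library.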

Additional observations from a re-analysis of the deposited data

How the results depend on the processing

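The fall of miR-339-5p kept its direction and met the criteria of the study in all 18 alternatives, and miR-107-3p kept its direction in all 18 without being called. miR-190a-5p, at 0.16 with all libraries, reversed without saline 1 (-0.19), saline 3 (-0.24) or morphine 1 (-0.03) and with the GC correction (-0.68), and was called without saline 2, its range over libraries left out being -0.24 to 2.39. miR-103-3p reversed without saline 2 (0.0202, range -0.25 to 0.02), miR-339-3p reversed with the GC correction (0.12), and miR-365-3p was called by the criteria without saline 2 (range -0.77 to -0.45) and with the GC correction (-2.53). That correction removes a GC trend of saline 2 that miR-365-3p did not follow. No scaling alternative changed the sign of a member. The cause of these changes was not tested.

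The number of the 6 miRNAs called by the criteria, 1 with all libraries, was 2 with the GC correction and 1 to 3 with libraries left out, and by adjusted p, also 1, it was 0 with the replicate block, 2 with the GC correction and 0 to 2 with libraries left out. Over all miRNAs, 71 had an adjusted p under 0.05, against 160 with library totals, 153 with upper quartile scaling, 156 with DESeq2, 28 with at least 10 counts in total, 110 with miRBase names only, 154 with the GC correction, 32 with the replicate block, and 0 to 386 with libraries left out. The 0 came without morphine 1, when 176 miRNAs met the criteria with an unadjusted p. By the criteria 264 miRNAs were called, and 176 to 492 with libraries left out, the 492 without saline 2. Of these calls 50% were higher in the morphine group, 34.9% with library totals, 37.7% with upper quartile scaling and 61.5% with the replicate block. The median log2 fold change of all miRNAs moved from -0.15 to -0.40 with library totals and to -0.35 with upper quartile scaling.

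The replicate numbers are not stated to pair libraries, and deviations of same-numbered libraries from their group means correlated at -0.23, -0.28 and 0.14 over 899 miRNAs. With the replicate block miR-339-5p had an adjusted p of 0.0516 by edgeR. Of the ratios, miR-190a-5p to miR-190b-5p ranged from -1.07 to 0.78 with libraries left out (0.78 without saline 2 and 0.22 without morphine 3), and miR-365-3p to miR-193a-3p was 0.11 after thinning and -0.76 to 1.17 with libraries left out (1.17 without saline 3 and 0.80 without morphine 1). miR-190b-5p, miR-193a-3p and the rare partner arms are limited by depth.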
